A study of Mus musculus with 2 samples.

Results

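Mir208a, Mir208b and Mir499 are the microRNA genes that lie in introns of the myosin heavy chain genes Myh6, Myh7 and Myh7b. They were chosen by name and matched by Ensembl gene ID to GENCODE symbols, and they are 3 of the 1973 microRNA genes counted in newborn mouse skeletal muscle. The data are small RNA sequencing of RNA under 30 bases from 2 libraries of strain B6NCrl at postnatal day 0, each made from an organ portion of 1 pup. Both libraries belong to 1 group, for which the labels name no treatment, and are called replicate 1 and replicate 2 after those labels. The labels do not name the muscle taken, and they record no sex. They number the samples as biological replicates 1 and 2, but both samples carry the same donor record. Whether the samples come from different pups is therefore unclear, and the spread between them may be partly technical.

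MicroRNAs are short RNAs cut from hairpin precursors, and they guide silencing of messenger RNAs that pair with their seed, bases 2 to 8 of the mature strand. In mice, Myh6 encodes the fast cardiac myosin and its intron produces miR-208a, which is known as a heart microRNA. Myh7 encodes the slow myosin of heart and slow muscle fibres and carries miR-208b, while Myh7b carries miR-499. In adult mouse muscle miR-208b and miR-499 are known to favour slow fibre gene expression.

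The mature sequences are shown because the members can be grouped by the seed they share. They are the RefSeq sequences on GRCm38.p6, written 5′ to 3′ with the seed in capitals.
mmu-miR-208a-3p: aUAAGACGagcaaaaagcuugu
mmu-miR-208b-3p: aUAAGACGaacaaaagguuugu
mmu-miR-499-5p: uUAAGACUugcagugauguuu
mmu-miR-208a-5p: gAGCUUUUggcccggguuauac
mmu-miR-208b-5p: aAGCUUUUugcucgcguuaugu
mmu-miR-499-3p: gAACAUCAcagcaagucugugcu

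The 3p strands of miR-208a and miR-208b share the seed UAAGACG, and they were identical at 19 of 22 positions. They differ by G10A, A16G and C18U, with positions counted from the 5′ end and the base of miR-208a given first. The 5p strand of miR-499 has the seed UAAGACU, so it shares bases 2 to 7 with both but not base 8. Among 1738 mature mouse sequences in the RefSeq table, UAAGAC stood at bases 2 to 7 in 3, and these were the 3 strands named here. The 5p strands of miR-208a and miR-208b share the seed AGCUUUU with each other and with mmu-miR-6415, whose gene Mir6415 had 0 counts in both libraries. They share bases 2 to 7, but not base 8, with mmu-miR-3101-3p and mmu-miR-7223-5p. The 3p strand of miR-499 shares bases 2 to 7, but not base 8, with mmu-miR-448-5p. In replicates 1 and 2, Mir3101 had 2 and 1 counts, Mir7223 had 0 and 0, and Mir448 had 2 and 8.

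The hairpins are shown with both mature strands in capitals, because the deposited tables count a whole hairpin and do not tell its strands apart.
Mir208a: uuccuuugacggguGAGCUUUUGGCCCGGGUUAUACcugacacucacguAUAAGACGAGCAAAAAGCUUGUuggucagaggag
Mir208b: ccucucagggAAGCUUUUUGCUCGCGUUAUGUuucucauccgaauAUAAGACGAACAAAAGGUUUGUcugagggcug
Mir499: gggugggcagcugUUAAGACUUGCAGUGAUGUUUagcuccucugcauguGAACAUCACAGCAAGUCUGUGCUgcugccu

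All coordinates are on GRCm38, the assembly also named mm10. Mir208a (ENSMUSG00000065432) lies at chr14:54949060-54949142 on the minus strand, in intron 29 of the 39-exon transcript Myh6-201. Mir208b (ENSMUSG00000077928) lies at chr14:54975700-54975776 on the same strand, in intron 31 of the 41-exon transcript Myh7-201. The hairpins of this pair are 26.6 kb apart, and the gap between Myh6 and Myh7 is 3756 bases. Mir499 (ENSMUSG00000076312) lies at chr2:155622880-155622958 on the plus strand, in intron 19 of the 42-exon transcript Myh7b-201.

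All 3 hairpins are transcribed in the direction of their host. Their introns are of similar length, 542 bases for Mir208a, 461 for Mir208b and 481 for Mir499. In each, the hairpin is nearer to the upstream exon, at 195, 102 and 158 bases, than to the downstream exon, at 264, 282 and 244 bases. No other gene of the GENCODE M21 annotation overlaps any of the hairpins.

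**Figure D1:**
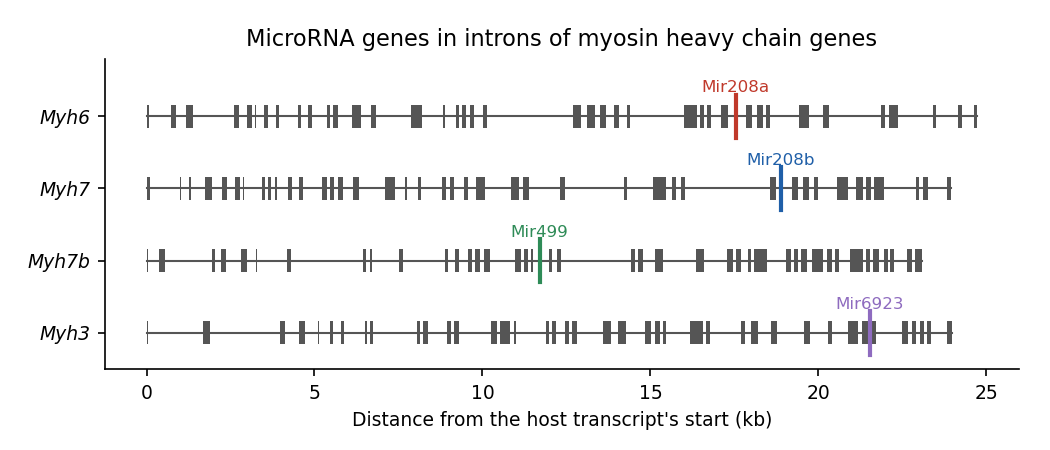
Exons (grey blocks) and introns (lines) of the transcripts Myh6-201, Myh7-201, Myh7b-201 and Myh3-201, drawn to scale from the transcript's start, with the microRNA gene of each host marked in colour. Mir208a and Mir208b start 17499 and 18850 bases into their hosts, and Mir499 starts 11668 bases into Myh7b.

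Replicate 1 held 7955914 annotated-strand microRNA counts and replicate 2 held 10816295. CPM are annotated-strand counts scaled to these totals. The floor of 3 counts, an approximate upper limit for a count of 0, corresponds to 0.377 CPM in replicate 1 and 0.277 CPM in replicate 2. A gene is called detected here if it had 10 counts or more in each library, as 365 genes did (18.5% of those counted), all 3 members among them. Of the markers of the labelled tissue, the skeletal muscle gene Mir206 had the most counted reads of any gene in both libraries. Its level was 113917 CPM ± 9579 (SD, n = 2). The other skeletal muscle marker, Mir133b, had 832 CPM ± 12.6 (SD, n = 2) and ranked 99 among the detected genes. Reads that fit several places were not counted, so genes with such reads may stand too low beside these markers. The neuronal genes Mir124-1, Mir124-2 and Mir124-3 had 0 counts in both libraries. Each shares a run of 32 bases with another of them, so these counts say nothing about neuronal tissue. Intervals below are 95% exact intervals and cover counting error only.

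In counted reads, Mir208b was the highest member, Mir499 came close behind it, and Mir208a was far lower. Whether the sequences of the members were captured equally well in the libraries was not tested. Mir208b had 5825 counts (732 CPM, interval 713 to 751) in replicate 1 and 8249 counts (763 CPM, 746 to 779) in replicate 2. Its mean of 747 CPM ± 21.6 (SD, n = 2) ranked 103 among the 365 detected genes, and the libraries differed by 1.04-fold.

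Mir499 had 4335 counts (545 CPM, interval 529 to 561) in replicate 1 and 4778 counts (442 CPM, 429 to 454) in replicate 2. Its mean was 493 CPM ± 72.9 (SD, n = 2), at rank 117. Replicate 1 was higher here by 1.23-fold. Mir208b exceeded Mir499 in both libraries, and the values of the pair did not overlap.

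Mir208a had 123 counts (15.5 CPM, interval 12.8 to 18.4) in replicate 1 and 131 counts (12.1 CPM, 10.1 to 14.4) in replicate 2. The mean of 13.8 CPM ± 2.37 (SD, n = 2) ranked 253. Both libraries stood well above the floor of 3 counts, and their intervals overlapped. Mir208a is the only heart-restricted gene among the markers used, so the presence of heart tissue could not be checked with a second gene, and whether misread Mir208b reads contributed to its counts was not tested.

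**Figure D2:**
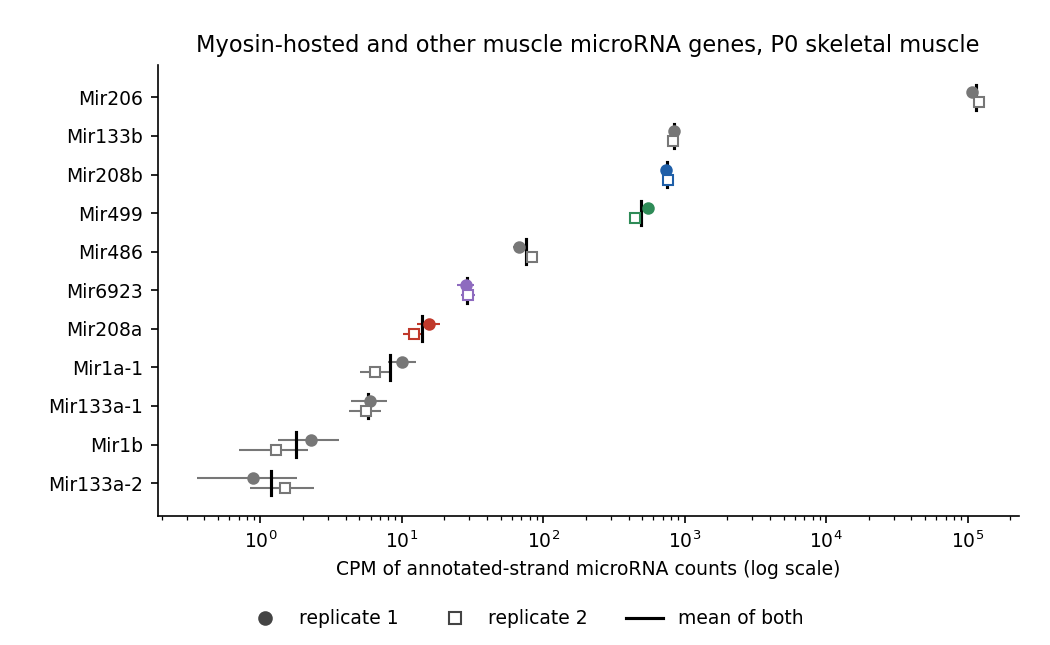
CPM of the myosin-hosted genes (coloured) and of the other muscle microRNA genes (grey) in replicate 1 (filled circles) and replicate 2 (open squares) on a log scale, with 95% exact Poisson intervals and the mean as a vertical line. Mir208b and Mir499 stand next to Mir133b, while Mir208a lies between Mir6923 and Mir1a-1.

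Together the members took 0.129% of the counts of replicate 1 and 0.122% of those of replicate 2. Within that sum, Mir208b made up 56.6% (Clopper-Pearson interval 55.7 to 57.6) in replicate 1 and 62.7% (61.9 to 63.5) in replicate 2. The share of Mir499 was 42.2% in replicate 1 and 36.3% in replicate 2. Mir208a made up 1.20% (0.995 to 1.43) and 0.996% (0.833 to 1.18).

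Ratios of counts within a library need no scaling between libraries. Mir208b exceeded Mir208a 47.4-fold (interval 39.6 to 57.1) in replicate 1 and 63.0-fold (53.0 to 75.4) in replicate 2, a mean of 55.2 ± 11.0 (SD, n = 2). Mir499 exceeded Mir208a 35.2-fold (29.5 to 42.5) in replicate 1 and 36.5-fold (30.7 to 43.7) in replicate 2, a mean of 35.9 ± 0.869 (SD, n = 2). The intervals of both ratios overlapped between the libraries.

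Mir208b over Mir499 gave a ratio of 1.34 (interval 1.29 to 1.40) in replicate 1 and 1.73 (1.67 to 1.79) in replicate 2, with a mean of 1.54 ± 0.271 (SD, n = 2). Both libraries put Mir208b above Mir499, but their intervals did not overlap, so the size of the difference varied between the samples beyond counting error. The summed level of the skeletal muscle markers Mir206 and Mir133b was 107985 CPM in replicate 1 and 121513 CPM in replicate 2, and that of the erythroid markers Mir451a and Mir144 was 583 CPM and 286 CPM. Their part in the ratio was not tested.

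Counted reads are shorter than the hairpins of 83, 77 and 79 bases, and CPM were not divided by length. Per hairpin length the mean ratios of counts were 59.5 for Mir208b over Mir208a, 37.7 for Mir499 over Mir208a and 1.58 for Mir208b over Mir499. The order of the members was the same on both scales. With 2 libraries an exact sign permutation test cannot give a two-sided p below 0.5, so none was made.

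**Figure D3:**
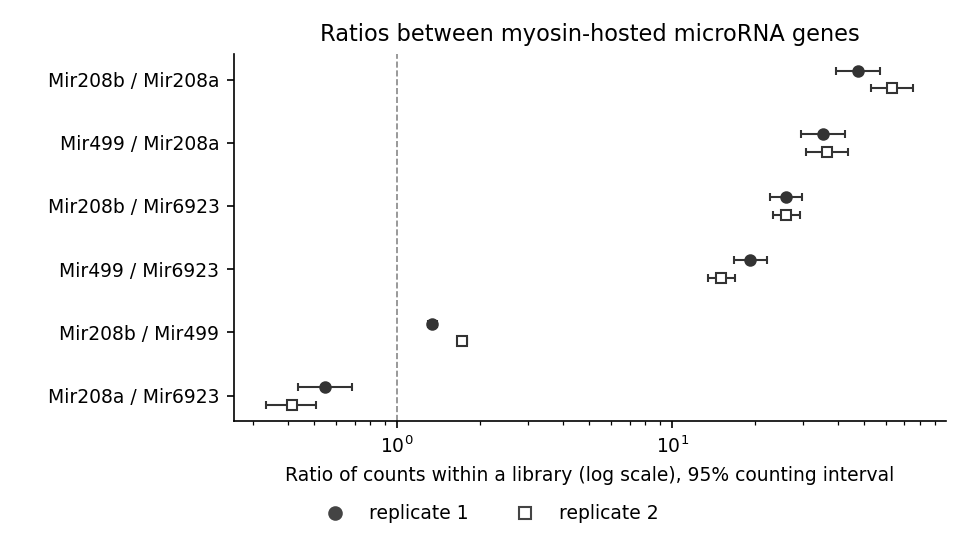
Ratios of annotated-strand counts between pairs of myosin-hosted genes in replicate 1 (filled circles) and replicate 2 (open squares) on a log scale, with 95% exact counting intervals and a dashed line at 1. The ratio of Mir208b to Mir499 is 1.34 and 1.73 with intervals apart, while Mir208b over Mir6923 is 25.9 and 26.0.

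A search of 14 protein-coding genes whose symbols start with Myh found 4 counted microRNA genes inside them. The fourth was Mir6923 (ENSMUSG00000098855), at chr11:67099804-67099875 on the plus strand in Myh3, the embryonic myosin heavy chain of developing muscle. Its annotated hairpin of 72 bases covers intron 34 of the 40-exon transcript Myh3-201 from end to end, with 0 bases to either exon. The sequence is shown with its first and last pair of bases in capitals, the GU and AG found at the ends of most spliced introns.
Mir6923: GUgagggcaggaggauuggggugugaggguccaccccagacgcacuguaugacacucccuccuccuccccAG

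Mir6923 had 225 counts (28.3 CPM, interval 24.7 to 32.2) in replicate 1 and 317 counts (29.3 CPM, 26.2 to 32.7) in replicate 2, with a mean of 28.8 CPM ± 0.726 (SD, n = 2) at rank 226. Mir208a stood below it in both libraries, with a ratio of Mir208a to Mir6923 of 0.547 (0.435 to 0.684) in replicate 1 and 0.413 (0.335 to 0.508) in replicate 2. The ratio of Mir208b to Mir6923 was 25.9 (22.7 to 29.7) in replicate 1 and 26.0 (23.3 to 29.2) in replicate 2, and that of Mir499 to Mir6923 was 19.3 (16.8 to 22.1) and 15.1 (13.5 to 16.9). The level of the host messenger RNAs was not measured.

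Of the 8 other muscle microRNA genes on the list, 7 were in the tables and 6 were detected. Mir133b, the neighbour of Mir206, stood just above Mir208b, and the ratio of Mir208b to Mir133b was 0.871 (interval 0.841 to 0.902) in replicate 1 and 0.927 (0.899 to 0.955) in replicate 2. Mir206 exceeded Mir208b 146-fold in replicate 1 and 158-fold in replicate 2. It exceeded Mir499 197-fold in replicate 1 and 273-fold in replicate 2. Mir486, in an intron of the ankyrin gene Ank1, stood below both in counted reads. Mir208b exceeded it 10.1-fold ± 1.23 and Mir499 exceeded it 6.74-fold ± 1.99 (SD, n = 2). The hairpin of Mir486 was compared with others on the same strand only, and reads that fit several places were not counted. Its level may therefore stand too low, and by how much was not tested.

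The remaining muscle genes stood below Mir208a in counted reads. Mir1a-1 had 80 counts in replicate 1 and 70 in replicate 2, and Mir208a exceeded it 1.54-fold (interval 1.15 to 2.06) in replicate 1 and 1.87-fold (1.39 to 2.54) in replicate 2. Mir133a-1 had 47 and 60 counts, Mir1b 18 and 14, and Mir133a-2 7 and 16. Reads that fit several places were set apart before counting. The hairpins of Mir133a-1 and Mir133a-2 share a run of 31 bases, and Mir133b shares 21 bases with Mir133a-1, so reads within those runs could be missing from their counts. Mir1a-1 and Mir1b shared no run over 13 bases with any other hairpin searched. Mir1a-2 was not among those searched, so the loss of Mir1a-1 reads that also fit Mir1a-2 cannot be judged from that run. The ratio of Mir208a to Mir1a-1 is therefore one of counted reads only. How many reads each gene lost was not tested.

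Besides the 19 of 22 positions at which the 3p strands of miR-208a and miR-208b agree, sequence shared with other genes was measured as unbroken runs. The longest run of identical bases on the same strand in any of 1893 other hairpins was 12 bases for Mir208a, 11 for Mir208b and 12 for Mir499, below the length of a mature strand. The longest run shared by the Mir208a and Mir208b hairpins on the same strand was 10 bases. The 79 counted genes without a match in the annotation, and other copies in the genome, were not searched.

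Nearly all counts at the members were on the annotated strand. On the opposite strand Mir208b and Mir499 had 0 counts in both libraries. The exact intervals of that share reached up to 0.0633% in replicate 1 and 0.0447% in replicate 2 for Mir208b. For Mir499 they reached up to 0.0851% and 0.0772%. Mir208a had 2 opposite-strand counts in replicate 1 (1.60% of its counts on both strands, interval 0.194 to 5.66) and 0 in replicate 2. Among the detected genes, 324 of 365 (88.8%) had none in either library, and 3 had an opposite-strand share over 10%. Summed over all genes, the opposite strand still held 10.7% of the counts on both strands in replicate 1 and 11.9% in replicate 2.

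**Figure D4:**
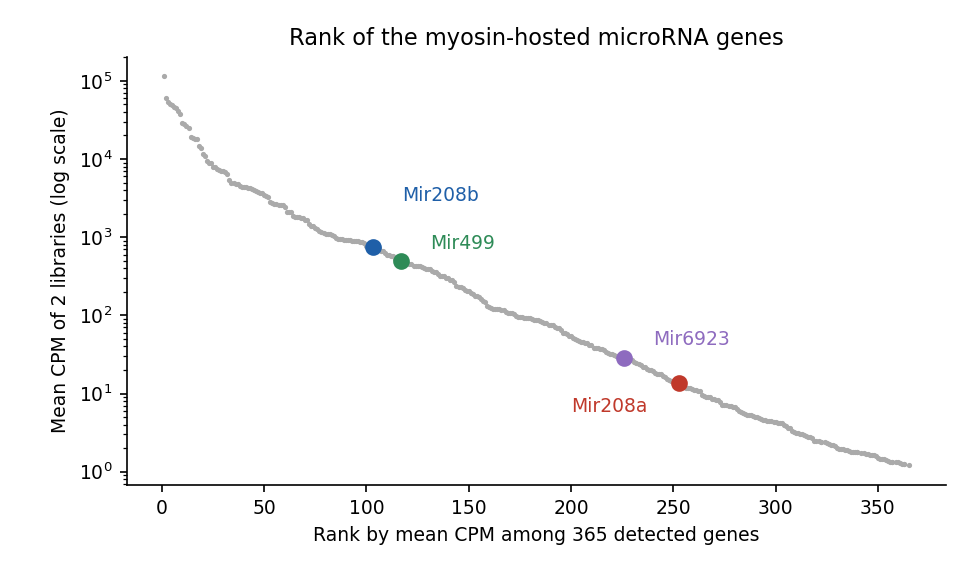
Mean CPM on a log scale against rank for the 365 detected genes (grey), with the myosin-hosted genes in colour. Mir208b and Mir499 lie at ranks 103 and 117, above the median level of 87.0 CPM, and Mir6923 and Mir208a lie at ranks 226 and 253, below it.

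The members were also placed among all counted microRNA genes that lie inside a protein-coding gene on its strand, the members included. Of 854 such genes, 181 (21.2%) were detected, with a median of 38.4 CPM, and the 184 other detected genes had a median of 126 CPM. Among the 181, Mir208b ranked 41, Mir499 ranked 46 and Mir208a ranked 109. These ranks, and those among all detected genes, are of counted reads. Genes whose reads fit several places may therefore stand too low beside the members, and by how much was not tested.

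The genes nearest to each member in level over both libraries, by the Euclidean distance of log2(CPM + 1), are given as a description over 2 libraries. Nearest to Mir208b were Mir195a (759 CPM in replicate 1 and 732 in replicate 2), Mir181a-1 (652 and 789) and Mir28a (814 and 683). Nearest to Mir499 were Mir223 (528 and 403), Mir125b-2 (507 and 406) and Mir467d (582 and 401). Nearest to Mir208a were Mir19a (15.1 and 11.6), Mir196a-1 (17.2 and 12.8) and Mir8114 (17.7 and 11.1). All 9 means differed from that of their member by less than the larger SD of the pair over the libraries, so the order among these neighbours is not resolved. Runs that these neighbours share with other genes were not measured. Their levels may lack reads that fit several places, so nearness here is one of counted reads only.

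Between the libraries, 0 of the 3 members were at least 2-fold apart, where 33 of 365 detected genes (9.04%) were, all 33 of them higher in replicate 1. On the log2(CPM + 1) scale the ratio of replicate 1 over replicate 2 was 0.33 for Mir208a, -0.06 for Mir208b and 0.30 for Mir499. The median over all detected genes was 0.24, so that Mir208b stood 0.29 below that median, with 83 of 365 genes below it, and Mir208a and Mir499 stood within 0.10 of it. Mir6923 had a ratio of -0.05, close to that of Mir208b. The exact counting interval of the ratio without the added 1 CPM was -0.11 to -0.01 for Mir208b, 0.24 to 0.36 for Mir499 and -0.01 to 0.72 for Mir208a.

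With trimmed-mean (TMM) scaling, which moved that median to 0.01, the ratios were 0.10 for Mir208a, -0.30 for Mir208b and 0.057 for Mir499. Under that scaling 13 genes were at least 2-fold higher in replicate 1 and 3 in replicate 2. The libraries cannot be tested against each other as conditions, since each is a single sample.

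**Figure D5:**
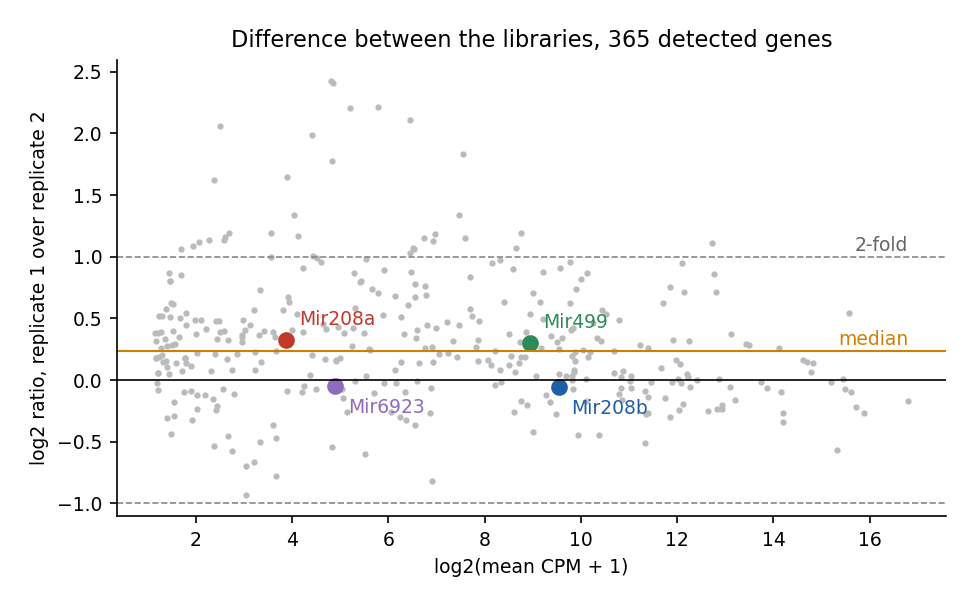
Log2 ratio of replicate 1 over replicate 2, from CPM with 1 added, against log2(mean CPM + 1) for the 365 detected genes (grey), with the myosin-hosted genes in colour, dashed lines at 2-fold and the median in orange. Mir208a and Mir499 lie just above the median of 0.24, and Mir208b and Mir6923 lie near 0.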

How the data were processed

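Small RNA under 30 bases was sequenced from 2 libraries of 1 group, with the replicate numbers taken from the labels. The authors deposited raw counts of 1973 microRNA genes per library in 3 columns, made on mm10 with GENCODE M4, per the readme text deposited with them. No source used here names the aligner or counter. The columns were read as either strand, annotated strand and opposite strand, since for every gene the first is the sum of the other two. That the column with most counts holds the annotated strand was inferred from the values. The 4 rows that name no gene stayed out of all totals. Reads that fit several places made up 28.0% and 26.9% of all reads in replicates 1 and 2.

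Symbols and positions came from GENCODE M21 on GRCm38 by ID without version (1894 of 1973 matched, all 3 members among them) and sequences from RefSeq on GRCm38.p6. Host introns were read from the first-numbered transcript of each host. Mir124-1, Mir124-2 and Mir124-3 are spelled Mir124a-1, Mir124a-2 and Mir124a-3 there. Mir1a-2 and Mir9-1 were not matched and are not analysed here. The other markers were Mir126a for endothelium (44986 and 47428 CPM in replicates 1 and 2), Mir143 with Mir145a for smooth muscle (31531 and 28507) and Mir122 for liver (86.4 and 153). Mir9-2 and Mir9-3 stood below 1 CPM. The runs they share with other genes were not measured and reads that fit several places were not counted. Absence of neuronal tissue therefore cannot be read from these values.

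CPM, means and SDs over the libraries, exact Poisson and binomial intervals (95%) and ratios were computed in Python 3.11.15 (numpy 2.4.6, pandas 2.3.3, scipy 1.17.1), with plots from matplotlib 3.10.9. Detection meant 10 counts or more in each library. Differences of at least 2-fold on the log2(CPM + 1) scale were counted, without a p-value. The 2-fold rule and the intervals were tried on simulated Poisson counts with planted changes. Those counts hold no other spread between libraries, so they cannot show how many of the 2-fold genes seen here reflect such spread. Genes named besides the members were the list of other muscle microRNAs, the 3 detected genes nearest to each member, and microRNA genes inside a Myh gene or sharing bases 2 to 7 with a member. Alternatives were either-strand counts, other scalings (TMM from edgeR 4.0.16, DESeq2 1.42.0, R 4.3.3), other count minimums and pseudocounts, and each replicate left out. The members and lists were chosen with earlier results of these data known.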

Additional observations from a re-analysis of the deposited data

How the results depend on the processing

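Leaving out 1 of 2 libraries cannot move a mean by 1 SD, so those 12 values for levels and ratios say nothing about stability. Of the 53 other alternative values, 34 stayed within 1 SD over the libraries (levels, ratios, ranks), the counting interval (log2 ratios) or 1.5 times the count, and 19 did not. Scaled to all reads, a total that also holds unmapped reads and reads in no gene or several places, the levels were 6.86 for Mir208a, 374 for Mir208b and 246 for Mir499. Mir208b had 663 CPM with either-strand counts and 844 CPM without Mir206 in the total. Log2 ratios of replicate 1 over replicate 2 for Mir208b were -0.30 with TMM, -0.35 with DESeq2 size factors and -0.14 when scaled to all reads, and for Mir499 0.057, 0.012 and 0.22 under the same settings. The number of genes at least 2-fold apart was 16 with TMM and also with DESeq2 size factors, against 33. Ranks with either-strand counts were 262 for Mir208a, 111 for Mir208b and 126 for Mir499. With a replicate left out, ranks were 245 to 253 for Mir208a, 97 to 107 for Mir208b and 117 to 118 for Mir499. Per hairpin length, a scale chosen after seeing the data, the ratio of Mir499 to Mir208a was 37.7. The order Mir208b, Mir499, Mir208a held under each of these settings for levels and ranks. No paired analysis was possible because there is 1 group. Depth limits Mir208a most, where the counting interval of its ratio between the libraries includes 0.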

Other observations

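The strands of miR-208a and miR-208b that come from opposite arms are complementary over a long run, a feature chosen after the sequences were seen. The first 14 of 22 bases of mmu-miR-208b-5p are the exact reverse complement of bases 7 to 20 of mmu-miR-208a-3p. Both are shown 5′ to 3′ with that run in capitals.
mmu-miR-208b-5p: AAGCUUUUUGCUCGcguuaugu
mmu-miR-208a-3p: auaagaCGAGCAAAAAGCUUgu

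Between strands of different members, the next longest such run was 6 bases, between mmu-miR-208a-5p and mmu-miR-208b-3p. Between the strands of a single hairpin, the longest exact run was 7 bases in Mir208a, 5 in Mir208b and 8 in Mir499. Both RNAs come from the minus strand of chromosome 14, and the opposite strand at Mir208a held 2 counts in replicate 1 and 0 in replicate 2. The tables count hairpins, so the abundance of mmu-miR-208b-5p by itself was not measured.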
